A study of Glycine max and Zea mays with 6 samples.

Results

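The ear of maize (Zea mays), the young female inflorescence, was profiled for monomethylation of lysine 4 of histone H3 (H3K4me1) by chromatin immunoprecipitation and sequencing (ChIP-seq). All 25301 regions of the deposited broad region list were taken, every one of them on chromosomes 1 to 10. The whole series lists 169329 regions and peaks over 4 lists, the other 3 from soybean leaf. The maize plants were of the inbred strain B73, untreated, grown in a greenhouse or a field, and the ear primordia, cut from shoots about a month after sowing, measured 3 to 8 mm. Soybean leaf H3K36me3, from untreated plants of the strain William82 about 10 days old, is the other broad list of the series, and its 32195 regions on 20 chromosomes are set beside the maize list where the lists differ. Each mark has 1 library, the maize and soybean inputs were not analysed here, and no value below has a replicate check. How many ears went into the maize library is not stated in the labels. The labels' protocols name antibodies against H3K4me3, H3K36me3 and H3K56ac but none against H3K4me1. The series' design text gives H3K4me1 for the maize ear, as the sample's own label does, but it also puts H3K4me1 among the soybean marks, where the soybean sample is labelled H3K4me3. The mark of the maize list is given here as labelled. The list holds positions alone, so read depth is unknown, and the labelled tissue and mark could not be checked against an expression or signal value.

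In plants H3K4me1 is known as a mark that lies along the body of transcribed genes, downstream of the H3K4me3 that covers their 5′ ends, whereas in animals it is best known from enhancers. In Arabidopsis it is written by ATX and ATXR methyltransferases and removed by demethylases of the LDL and FLD group. The ear primordium is built by the inflorescence meristem, which lays down rows of spikelet pair meristems along its flanks. The maize genome consists largely of nested retrotransposons, with genes lying singly or in small islands between them and more densely towards the chromosome ends. Maize chromosome maps begin by convention with the short arm. No maize gene positions were used here, so the regions are described by their own length, spacing and place, and no region is assigned to a gene. No sequence is shown, since no genome of the build B73 RefGen_v4 was used. Coordinates are in that build, as the submitters' processing notes name it, and are counted from 1. With 1 library a list, values are descriptions and no p-value is given. The 95% intervals are exact binomial ones, which cover counting error alone, and neighbouring regions are not independent.

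H3K4me1 occupied a small part of the maize chromosomes in stretches of a few kilobases. The 25301 regions covered 117 Mb, or 5.57% of the 2104 Mb between the first and the last region of each chromosome. That is 1 region per 83.2 kb, or 12.0 regions per Mb. The median length was 3800 bp, with quartiles of 1800 and 6400 bp, and the mean was 4629 bp ± 3922 (SD over regions, n = 25301). The shortest regions were 200 bp and the longest 41600 bp. Regions of 5 kb or more made up 37.6% of the list (interval 37.0 to 38.2) and held 68.9% of the covered length. Those of 10 kb or more were 2317 (9.16%, interval 8.81 to 9.52) and held 27.1% of it, 185 reached 20 kb, and 11 reached 30 kb.

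The lengths formed a broad plateau rather than a single peak. Most edges lay on a grid of 200 bp, and among the 23015 regions with both edges on it each 200 bp class from 1200 to 4200 bp held between 2.28% and 2.82% of the regions. The single fullest class was the shortest, 200 bp, with 956 regions (3.78% of all, interval 3.55 to 4.02). Regions of 1000 bp or less were 4100 (16.2%, interval 15.8 to 16.7). In soybean leaf H3K36me3 the shortest class held 358 regions (1.11%), and the fullest class was 1400 bp with 1805 regions.

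**Figure D1:**
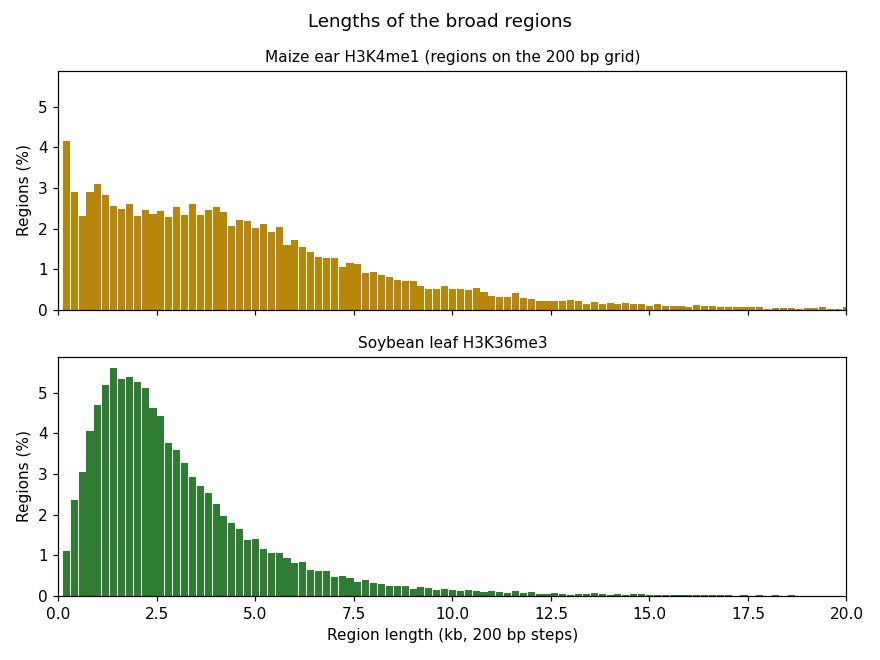
Share of regions (%) by length in 200 bp steps up to 20 kb, for maize ear H3K4me1 (upper panel, regions with both edges on the grid) and soybean leaf H3K36me3 (lower panel). The maize lengths start with a spike at 200 bp and stay nearly level to 4200 bp, while the soybean lengths have 1 peak, at 1400 bp.

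The 10 longest regions ran from 30600 to 41600 bp and lay on chromosomes 1, 3, 5, 6, 7 and 9. None of them lay between 20.5% and 73.5% of the way along its chromosome. The longest of all, of 41600 bp, lay on chromosome 5 from 220481001 to 220522600, near the end of the chromosome. It stood alone, with 73000 bp free of regions before it and 54200 bp after it. The second, of 41000 bp, lay on chromosome 7 from 33468601 to 33509600 and was still more isolated, with 137000 bp free before it and 222600 bp after it. The next, of 38600 bp, lay on chromosome 6 from 158247001 to 158285600 and had a neighbour at 1600 bp.

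Others of the 10 sat in company. A region of 34400 bp on chromosome 3 from 231831801 to 231866200 had neighbours at 1400 and 1000 bp and shared its 1 Mb window with 31 other regions. A region of 31000 bp on chromosome 9 from 117391801 to 117422800 had neighbours at 1400 and 1600 bp in a cluster of 7. The remaining 5 of the 10 were 30600 to 33400 bp long. They lay on chromosome 1 from 235073001 to 235106400 and from 274656201 to 274686800, on chromosome 3 from 179875601 to 179908600, on chromosome 5 from 35585001 to 35618000 and on chromosome 7 from 37485601 to 37516600. Of the 10, 5 had no neighbour within 10 kb, and 5 had at least 1. The longest region of a chromosome was 41600 bp on chromosome 5, and on chromosomes 4 (185921601 to 185949200) and 10 (142340001 to 142367600) it was 27600 bp. On chromosome 2 it was 29054 bp (170858947 to 170888000) and on chromosome 8 it was 28400 bp (16007001 to 16035400).

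On a log scale, spacing divided the regions into close neighbours and distant ones. The gap from a region to the next had a median of 31185 bp (interval 29600 to 32600), with quartiles of 2800 and 103200 bp, over 25291 gaps. Counted in equal steps on a log scale, gaps had 1 maximum close to 1 kb, where the step from 1.00 to 1.26 kb held 7.12% of them. A second maximum lay between 100 and 126 kb, with 5.92%, and the low point between the maxima was at 10.0 to 12.6 kb, with 1.61%. The steps widen with gap length, so the second maximum and the low point describe counts on a log scale. Gaps of 10 kb or less were 39.6% of all (interval 39.0 to 40.2), and gaps of 100 kb or more were 25.8% (interval 25.3 to 26.4) and held 76.8% of all the length free of regions.

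Soybean leaf H3K36me3 had no second maximum near 100 kb. Its share of gaps per step rose slightly, from 4.72% at 6.31 to 7.94 kb to 5.16% at 12.6 to 15.8 kb. Its median gap was 5800 bp (interval 5800 to 6000), the step from 10.0 to 12.6 kb held 4.94% of its gaps and the step from 100 to 126 kb held 0.917%. Between edges on the grid the smallest gap was 800 bp in both lists and was also the commonest, with 1251 maize gaps and 2802 soybean gaps, so no such pair of regions lay closer together. Species, tissue, mark and library differ together between the lists and cannot be told apart.

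**Figure D2:**
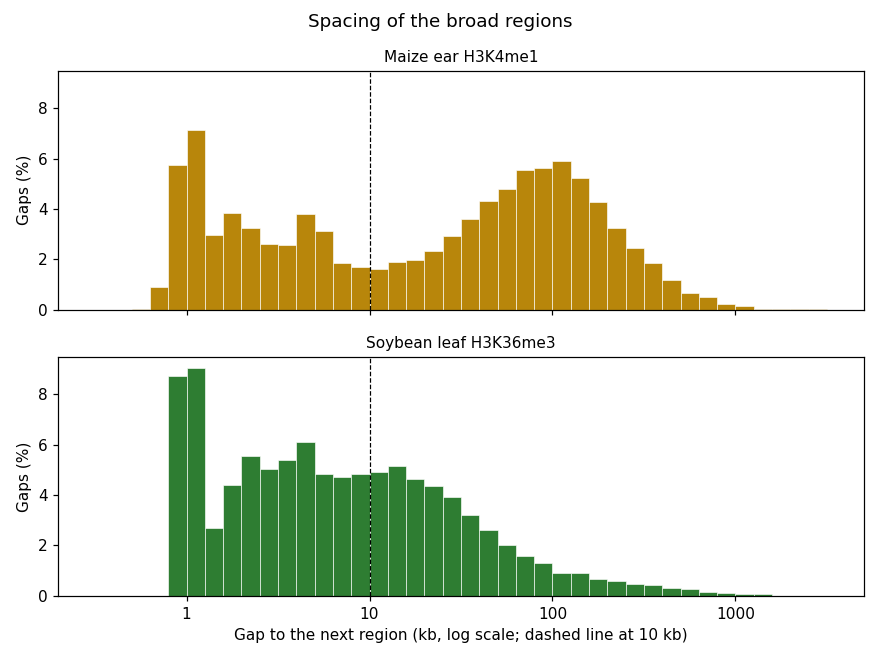
Share of gaps (%) between neighbouring regions by gap length in kb on a log scale, for maize ear H3K4me1 (upper panel) and soybean leaf H3K36me3 (lower panel), with a dashed line at 10 kb. On this scale maize gaps fall into a group near 1 kb and a group near 100 kb with a low point at 10.0 to 12.6 kb. Soybean gaps have no group near 100 kb and a slight rise at 12.6 to 15.8 kb. Steps below 2 kb hold unequal numbers of 200 bp classes, which makes them uneven.

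A smaller excess of maize gaps stood out near 5 kb. Among gaps between edges on the grid, the number per 200 bp class was 97 at 4200 bp, 175 at 5000 bp, 144 at 5600 bp and 57 at 6000 bp. The rise was uneven, since the class at 5200 bp held 110 gaps, as did the class at 4000 bp. Gaps of 4.6 to 5.6 kb were 850 (3.71% of 22898), against 767 gaps of 3 to 4 kb and 307 gaps of 6.6 to 7.6 kb, each over 6 classes. They outnumbered those of 3 to 4 kb on 8 of the 10 chromosomes, with 50 to 124 per chromosome. In soybean leaf H3K36me3 the same 3 bands held 1747 gaps at 4.6 to 5.6 kb, with 2578 at 3 to 4 kb and 1136 at 6.6 to 7.6 kb, so the count there was lower in each longer band. These bands were drawn after the excess had been seen, and no test was made of it. The median maize region before such a gap was 3400 bp long, and before a gap of 3 to 4 kb it was 3600 bp long.

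**Figure D3:**
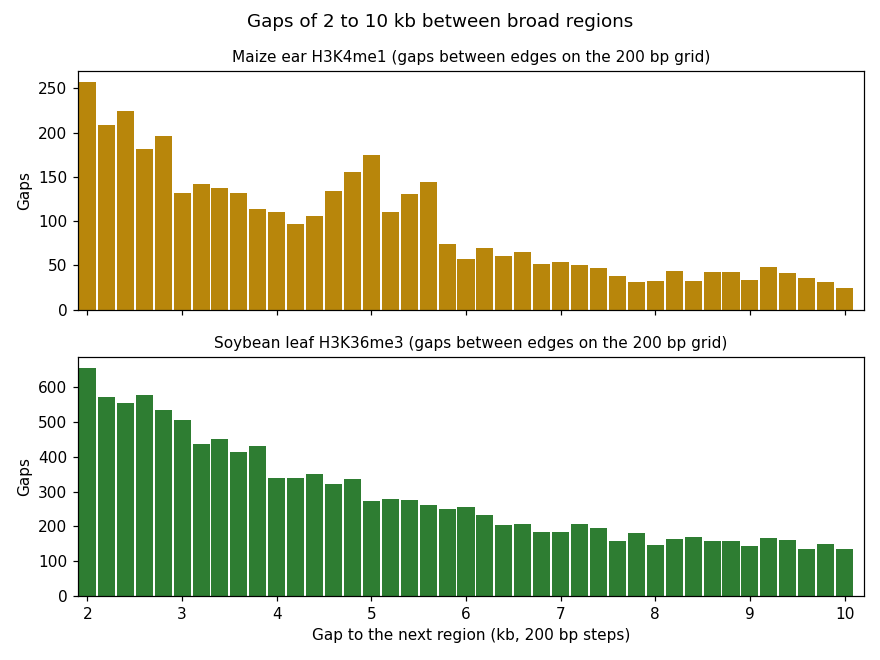
Number of gaps of 2 to 10 kb between edges on the 200 bp grid, per 200 bp class, for maize ear H3K4me1 (upper panel) and soybean leaf H3K36me3 (lower panel, its own axis). The maize counts are raised unevenly from 4.6 to 5.6 kb, with 175 gaps at 5000 bp and 110 at 5200 bp, over the 97 at 4200 bp and the 57 at 6000 bp.

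Joining regions across gaps of 10 kb or less, the low point of the maize spacing on a log scale, gave 15283 units, 1 per 138 kb. Clusters of 3 or more regions numbered 2205 and held 9204 regions (36.4%, interval 35.8 to 37.0). A further 3019 pairs held 23.9% of the regions, and 10059 regions stood alone (39.8%, interval 39.2 to 40.4). In soybean leaf H3K36me3, 66.5% of regions were in clusters of 3 or more and 17.3% stood alone. The same limit was applied to soybean, whose list was denser (33.5 regions per Mb, against 12.0 in maize). Neither these shares nor the cluster counts below were adjusted for density. Clusters of 10 or more were 56 in maize, with 665 regions, and 343 in soybean, with 4392 regions. The maize number was lower when regions with an edge off the 200 bp grid, which soybean lacks, were left out. Without them there were 7 such maize clusters, with 80 regions, and the most regions in a cluster was 12, against 23 in the full list. Of the regions left out, 68.7% were in clusters of 3 or more, and no equal number of other clustered regions was left out for comparison. Joining gaps of 1 kb or less gave 21 such clusters in maize, with 239 regions, and 165 in soybean.

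Clustered regions were shorter than single ones. The median length was 2000 bp in clusters of 10 or more (interval 1600 to 2207), 2600 bp in clusters of 5 to 9, 3400 bp in clusters of 3 or 4 and 3800 bp in pairs, against 4400 bp for regions alone. Regions of 1000 bp or less were 37.1% of the largest clusters and 10.5% of single regions. The share of 10 kb or more ran the other way, at 5.41% and 10.5%. With regions joined across gaps of 1 kb or less the order was the same, with medians of 2800 bp in clusters of 10 or more and 3600 bp in clusters of 3 or more, against 4600 bp for single regions. Without regions off the grid the medians were 1400 bp over the 80 regions in clusters of 10 or more and 3000 bp in clusters of 3 or more, against 4400 bp for single regions. H3K4me1 covered 56.4% of the span of the clusters of 10 or more, whose median span was 64.7 kb, and 76.3% of the span of pairs.

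The 5 largest clusters lay on chromosomes 2, 4, 1 and 8, and 3 to 7 of the regions in each had an edge off the grid. The largest held 23 regions over 115 kb on chromosome 2, from 10017201 to 10132200. Its regions had a median length of 1200 bp, and 47.4% of its span was covered. The second held 20 regions over 132 kb on chromosome 4, from 187795201 to 187927200, with a median length of 2600 bp and 57.4% of the span covered. It was the widest cluster of the list.

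The next in size were unlike each other. One of 18 regions over 86.4 kb on chromosome 2, from 193502001 to 193588400, was the thinnest of the 5, with a median length of 800 bp and 34.3% of the span covered. Another held 16 regions on chromosome 1 from 9548001 to 9644000, with a longest region of 14600 bp and 60.9% covered. The last of the 5 held 15 regions on chromosome 8 from 159513401 to 159578200 and was the most filled of them, with 70.2% covered. A cluster of 15 regions on chromosome 3, from 95544801 to 95622402, was wider and had 36.8% of its span covered.

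Over the 10 chromosomes together the mark was denser in the outer parts than in the interior. Each chromosome was cut into 5 equal parts between its first and last region. The outer parts held 14030 regions (55.5%, interval 54.8 to 56.1), and their density was 1.87 times that of the 3 inner parts (interval 1.82 to 1.91). In covered length the ratio was 2.03. The ratio of region densities was above 1 on all 10 chromosomes, highest on chromosome 9 with 2.28 and chromosome 2 with 2.23, and lowest on chromosome 6 with 1.41 and chromosome 4 with 1.51. Leaving out 1 chromosome at a time gave ratios from 1.82 to 1.92. The start of a chromosome was not always dense. On chromosome 6 the first part, with 8.69 regions per Mb, was below the chromosome's mean of 12.3. Chromosome 7 had 11.1 in its first part, against a mean of 11.4. On chromosome 4 the first part, with 12.0, was below the part next to the last, with 13.7. Chromosome 10 had 11.7 in the first part and 11.8 in the part next to the last.

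Pooled over chromosomes, density was lower at each step away from the chromosome end. Within 5 Mb of an end there were 24.3 regions per Mb, with 11.8% of the length covered. There were 20.6 per Mb at 5 to 10 Mb, 14.5 at 20 to 30 Mb, 10.8 at 40 to 60 Mb, and 8.08 beyond 80 Mb, where 3.36% was covered. The median gap was 10200 bp within 5 Mb of an end and 50700 bp beyond 80 Mb, over the 8 chromosomes that reach so far.

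**Figure D4:**
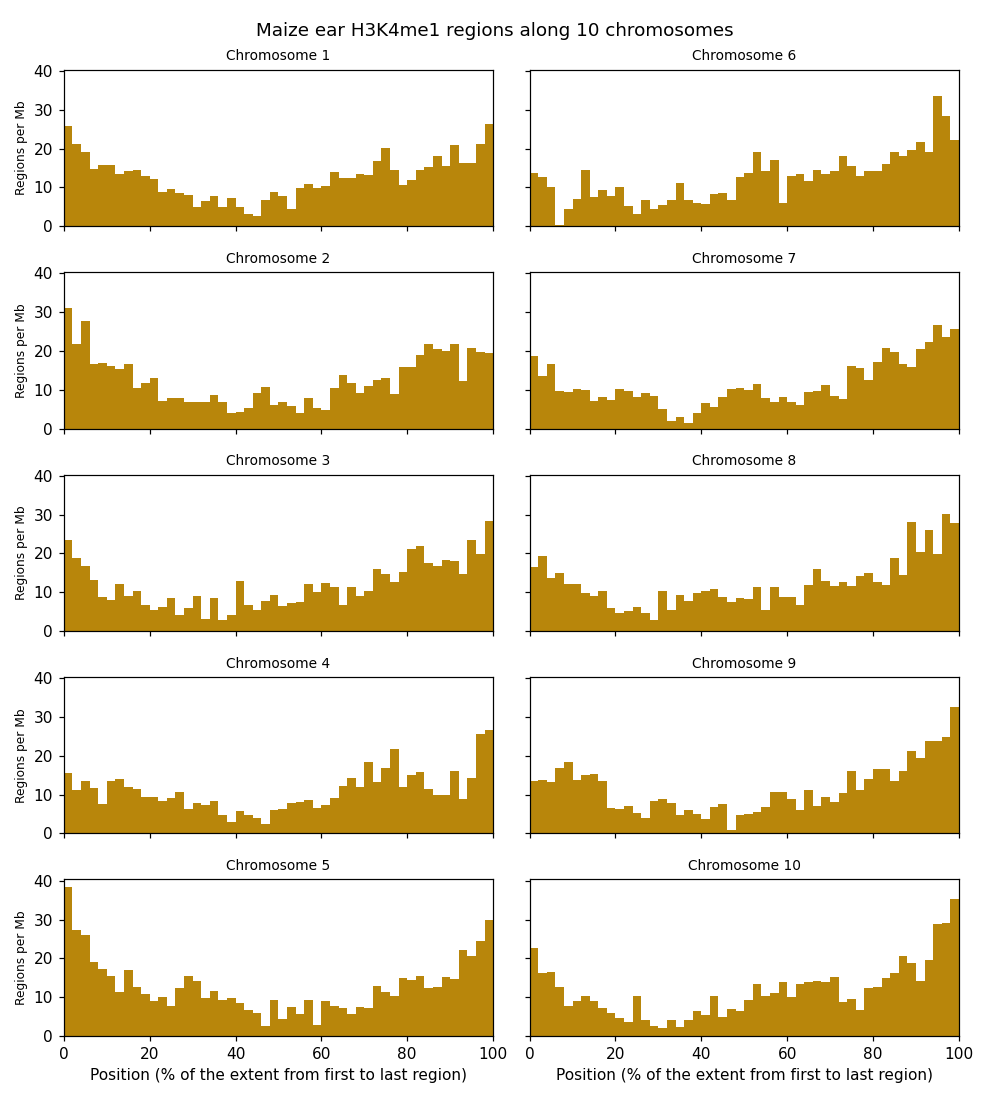
Maize ear H3K4me1 regions per Mb along each of the 10 chromosomes, in 50 bins between its first and last region (position in % of that extent). All 10 profiles are high at the right end and low in the interior, and chromosome 6 also has a low point near its left end.

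On most chromosomes the first and last parts were unequal. The last part of a chromosome held more regions than the first on 9 of 10 chromosomes, all but chromosome 5. Pooled, the last part had 19.2 regions per Mb, against 14.1 in the first. The difference was greatest on chromosome 6, with 21.2 per Mb in the last part and 8.69 in the first, a ratio of 2.44. On chromosomes 7 and 10 the ratios were 1.89 and 1.80, while these parts were nearly even on chromosomes 1 and 2, at 1.05 and 1.04. The outermost 2% of chromosome 2 differed, with 31.1 regions per Mb at the start and 19.4 at the end. Those of chromosome 1 had 25.7 and 26.4 per Mb. Chromosome 5 had 18.2 per Mb in its last part and 19.5 in its first. The sparsest part was the second on 5 chromosomes and the central one on the other 5, and the lowest of all was the second part of chromosome 10, with 4.38 regions per Mb.

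Chromosomes 6 and 10 show how far the profiles differed. From start to end the 5 parts of chromosome 6 had 8.69, 6.53, 11.2, 14.1 and 21.2 regions per Mb, so its density was higher in each part after the second. Those of chromosome 10 had 11.7, 4.38, 9.16, 11.8 and 21.0 per Mb. Chromosome 1, the largest, was closer to symmetric, with 16.7, 7.84, 6.89, 13.7 and 17.6 per Mb. Whole chromosomes were alike in density despite this. Regions per Mb ran from 10.9 on chromosome 4 to 12.8 on chromosome 5, and the covered share ran from 4.84% to 6.17% on the same chromosomes. The median length was 3600 to 3832 bp on the 10 chromosomes. The share of regions in clusters of 3 or more ran from 31.9% on chromosome 8 to 39.1% on chromosome 7.

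Pooled over chromosomes, regions were shorter in the second and central parts than in the other 3. The median length was 3800 bp in the first part (interval 3800 to 4000) and 4000 bp in the last (interval 4000 to 4200), and 3800 bp in the part next to the last (interval 3800 to 4000), against 3400 bp in the second (interval 3200 to 3600) and 3200 bp in the central part (interval 3000 to 3400). The first part exceeded the second on 10 of 10 chromosomes, and the last exceeded the central part on 9 of 10, chromosome 10 being the exception. There the central part had the highest median, 3900 bp. On chromosome 6 the first part, with 3000 bp, was below the central part, with 3400 bp. The lowest median was 2200 bp, in the central part of chromosome 2. Regions of 1000 bp or less were 15.1% of the first part, 15.1% of the part next to the last and 14.1% of the last part, against 20.5% of the second and 21.2% of the central part. Among single regions alone the medians were 4800 bp in the last part and 3600 bp in the central part.

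**Figure D5:**
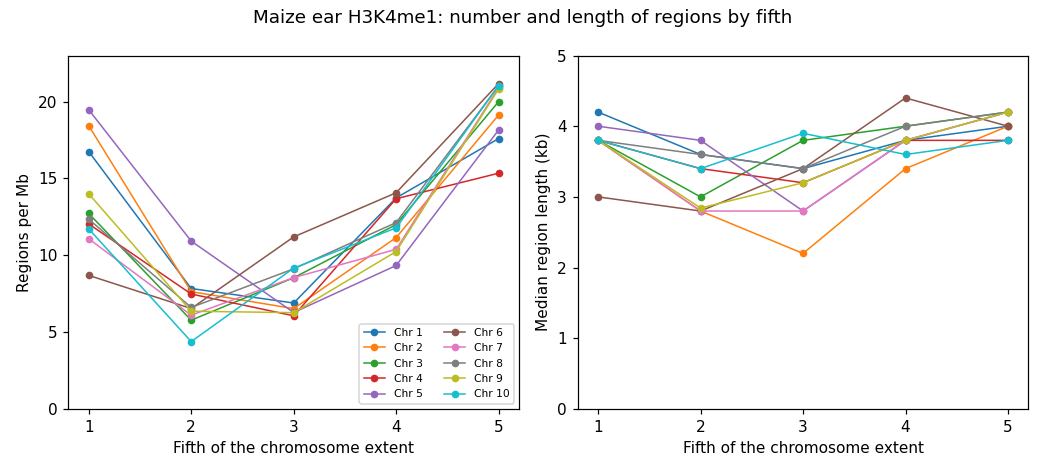
Regions per Mb (left) and median region length in kb (right) in 5 equal parts of each maize chromosome, counted from the start of the map, with 1 line per chromosome. Density is lowest in part 2 or 3 of every chromosome, and median length varies less, with a lowest value of 2.2 kb on chromosome 2.

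Gaps of 10 kb or less had much the same median along the chromosome, while the median of longer gaps varied. The shorter class ends at the 10 kb cut and, between edges on the grid, starts at 800 bp, so its median had less room to move. It includes gaps within pairs, and the longer class includes gaps beside single regions. Gaps of 10 kb or less had a median of 1.72 kb in the second part and of 1.8 kb in the other 4 parts. Gaps over 10 kb had a median of 76.3 kb in the first part and 59.6 kb in the last, against 141 kb in the second and 131 kb in the central part. Gaps of 10 kb or less were 43.2% of gaps in the last part and 36.2% in the second. When clusters were counted as 1 unit each, the density of units in the outer parts was 1.70 times that in the inner parts, against 1.87 for regions.

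The number of regions per 1 Mb window varied widely. Over 2099 full windows the mean was 12.0 regions with an SD over windows of 7.45 and a variance 4.63 times the mean. The median was 11, with quartiles of 6 and 16 and a highest count of 54. For the joined units the variance was 1.88 times the mean. The fullest 10% of windows held 23.1% of the regions and the fullest 25% held 46.2%. The numbers of regions in adjacent windows had a correlation of 0.61 across 2089 pairs of windows, and windows 10 Mb apart had 0.44 across 1999 pairs. These are descriptions across windows of 1 library that share its chromosomes, with no p.

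Windows with many regions held regions of much the same length as windows with few. The median length was 3800 bp in windows of 31 regions or more (interval 3600 to 4000) and 3600 bp in windows of 1 to 5 regions (interval 3333 to 3800). The covered share was 16.1% in the full windows and 1.51% in the sparse ones. Of the 69 windows with 30 regions or more, 48 lay in the last part of a chromosome, 19 in the first, 2 in the part next to the last and 0 in the remaining parts. Without regions off the grid 34 windows reached 30 regions.

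The fullest window on each chromosome was usually near an end. The fullest of all, from 10000001 to 11000000 on chromosome 2, held 54 regions and contained the largest cluster. The next was from 148000001 to 149000000 on chromosome 10, with 44 regions. Chromosomes 5, 6 and 8 had a fullest window of 41 regions each, and that on chromosome 5, from 1000001 to 2000000, had the highest covered share of any window, 24.6%. The fullest window of chromosome 6 was from 165000001 to 166000000 and that of chromosome 8 from 177000001 to 178000000. Chromosomes 3, 7 and 9 had 37 regions each in theirs, from 233000001 to 234000000, from 2000001 to 3000000 and from 150000001 to 151000000. The fullest window lay farther inside on chromosomes 4 and 1. Chromosome 4 had 38 regions from 187000001 to 188000000, 75.9% of the way along, where its largest cluster lay. On chromosome 1 the first of 3 windows with 33 regions was from 252000001 to 253000000, 82.3% of the way along.

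Every chromosome also held a long stretch with few or no regions. Windows without a region were 24 of 2099 (1.14%, interval 0.734 to 1.70), of which 12 lay in the second part, 9 in the central part and 3 in the first. Gaps of 1 Mb or more were 61, and 8 of these reached 2 Mb, 1 on each of 8 chromosomes. The longest was 2986400 bp on chromosome 9, from 73634801 to 76621200. The second was 2966600 bp on chromosome 6, from 10593601 to 13560200. Among the longest gaps of the 10 chromosomes it alone lay near an end, 6.85% of the way along.

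The longest gaps of the other 8 chromosomes were interior. That on chromosome 4 was 2672600 bp (109297201 to 111969800), that on chromosome 5 was 2642600 bp (104216801 to 106859400), and that on chromosome 8 was 2572200 bp (49790401 to 52362600). Chromosome 3 had 2391800 bp from 85325401 to 87717200, chromosome 7 had 2284000 bp from 65876601 to 68160600, and chromosome 2 had 2100000 bp from 102032001 to 104132000. On chromosomes 10 and 1 the longest gaps were shorter, 1644400 bp from 46445401 to 48089800 and 1545600 bp from 135245201 to 136790800. A further gap on chromosome 4, of 1768400 bp from 8446601 to 10215000, was longer than the gaps of chromosomes 10 and 1 and lay near the start of the chromosome, 3.69% of the way along. Centromere positions were not used here, so these gaps are given by position alone.

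The sparsest 10 Mb of a chromosome held 19 to 46 regions. The lowest count, 19 regions, was on chromosome 1 between 132 and 142 Mb, around its longest gap. Chromosome 7 had 23 between 59 and 69 Mb, and chromosome 10 had 26 between 44 and 54 Mb. The centre of this stretch lay between 25.9% and 49.5% of the way along on 9 chromosomes, always short of the midpoint. On chromosome 6 it was between 9 and 19 Mb, with 35 regions, 7.96% of the way along. Beyond the first 20% of that chromosome its sparsest stretch was between 47 and 57 Mb, with 45 regions.

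Beside soybean leaf H3K36me3 the maize list, pooled over chromosomes, differed less between the outer and inner parts of the chromosomes. Maize regions were longer (medians of 3800 and 2400 bp), and they covered a smaller share, 5.57%, against 10.4%. The density ratio of outer to inner parts was 1.87 in maize (interval 1.82 to 1.91) and 3.20 in soybean (interval 3.13 to 3.28). Single chromosomes ran from 1.41 to 2.28 in maize and from 0.810 to 6.55 in soybean, so the soybean range spans that of maize. The soybean ratio was above 1 on 19 of 20 chromosomes. With clusters counted as 1 unit each it was 1.70 in maize and 2.32 in soybean. Counts per 1 Mb window were 12.0 ± 7.45 in maize (SD, n = 2099 windows) and 32.9 ± 30.2 in soybean (SD, n = 950 windows). The SD was 0.62 times the mean in maize and 0.92 times in soybean. The variance was 4.63 times the mean in maize and 27.7 times in soybean, a measure that grows with the mean count, and for the joined units it was 1.88 and 6.28 times. In the longer 50% of each list it was 3.00 times in maize and 12.7 times in soybean. The fullest 25% of windows held 46.2% of maize regions and 59.2% of soybean regions. Maize regions with more than 50 kb free on both sides were 19.8% of the list, against 3.24% in soybean. The mean gap was 78572 bp in maize and 26754 bp in soybean, and these shares were not adjusted for that. In the central part of the chromosomes the maize median length was 3200 bp, below the 4000 bp of the last part, whereas in soybean it was 2600 bp, above the 2400 bp of the last part. With 1 library a list and different species, tissues and marks, no test of these differences was possible.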

How the data were processed

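Chromatin of formaldehyde-fixed tissue was sonicated and immunoprecipitated, per the labels' protocols. Per the submitters' processing notes, MACS2, SICER, Bowtie2, Picard and Trimmomatic were among the tools, and the build named is the maize assembly B73 RefGen_v4. For the maize list the peak caller, its threshold and any use of the input were not given in the sources used here. Each deposited list holds chromosome, start and end with no score, so depth is unknown. How uniquely reads map was not analysed here.

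Deposited ends are the last base counted from 0 and were moved by 1 bp. A gap is the distance from the end of a region to the next start on the same chromosome. Clusters join gaps of at most 10 kb. Windows of 1 Mb are full windows from position 1, and regions were assigned by midpoint. Density in 5 equal parts uses the extent from first to last region. The intervals of medians are exact binomial ones from order statistics. The functions were tested on simulated data. Python 3.11.15, pandas 2.3.3 and scipy 1.17.1 were used.

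Regions were named by rule: the 10 longest, the longest of each chromosome, the 5 largest clusters, the longest gaps and the fullest windows. The members and this rule were chosen with earlier results of these data known. The gene table at hand is for soybean, so the planned maize gene lists and the overlap with genes were not run. Alternatives were the longer 50% of the list, joining gaps of 1 kb or less, leaving out regions off the 200 bp grid, and other windows, parts and cluster limits.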

Additional observations from a re-analysis of the deposited data

How the results depend on the processing

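The outer to inner density ratio and the differences from soybean in median length, median gap and density ratio kept their direction, while sizes moved. Other comparisons, such as the excess of gaps near 5 kb and the last part against the first, were not among the results rerun under all these settings. The longer 50% of the list had 12344 regions, a median gap of 86200 bp, 10.7% of regions in clusters, a covered share of 4.43%, an outer to inner density ratio of 2.06 and a window variance 3.00 times the mean. Joining gaps of 1 kb or less gave a median length of 4200 bp, a median gap of 42800 bp, 27.9% in clusters, a covered share of 5.67% and a variance 3.86 times the mean. Leaving out regions off the 200 bp grid gave a median length of 4000 bp, a median gap of 40800 bp and 27.6% in clusters. Regions of 1 kb or more had a median length of 4400 bp. The share in clusters was 27.7% with gaps of 5 kb, 43.4% with 20 kb, 60.2% for 2 or more regions and 15.2% for 5 or more. The 56 clusters of 10 or more became 7 without regions off the grid, 21 with joined gaps and 1 in the longer 50%. The density ratio was 1.77 when 3 equal parts were used, 2.17 for the outer parts against the central one and 2.03 in covered length, 1.92 without chromosome 4 and 1.92 without chromosome 6. The window variance was 3.23 times the mean at 0.5 Mb, 7.41 at 2 Mb and 4.64 with windows offset by 0.5 Mb. Maize exceeded soybean in median length by 1400 bp, and by 2400 bp in the longer 50% of both lists. The ratio of maize to soybean was 5.38 for the median gap, 4.95 in the longer 50% and 5.22 with joined gaps, and for the density ratio 0.583, 0.687 and 0.581. The effect of joining on clusters and window variance, of the grid on clusters and of all settings on clusters of 10 or more was added after the data were seen. The cause of these moves was not tested beyond what each setting removes. No paired analysis was possible because each group has 1 sample and no test was made. Depth is unknown, so a gap is a stretch without a call, whatever its signal.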

Other observations

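Edges off the 200 bp grid belonged to 2286 regions (9.04%, interval 8.68 to 9.40), 8.36% to 9.93% on each chromosome, and to none of the 32195 soybean regions. Of these regions 1053 had the start off the grid, 911 the end and 322 both. They had a median length of 2610 bp (interval 2450 to 2687), against 4000 bp for the other 23015, and their nearest neighbour was at a median of 1586.5 bp, against 5200 bp. Of them 68.7% were in clusters of 3 or more, against 33.2% of the others. Gaps with an edge off the grid on both sides had a median of 1942 bp, gaps with 1 such edge had 2918.5 bp, and gaps with none had 39000 bp. Gaps under 800 bp were 24 of 215, 229 of 2178 and 0 of 22898 in these 3 classes. The source of these edges was not tested.

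Lengths of neighbours were weakly alike, with a correlation of 0.16 of log2 length across 25291 neighbouring pairs, a description over regions of 1 library. The length of a region had its highest median, 4600 bp (interval 4400 to 4800), where the nearest neighbour lay 50 to 100 kb away. It was 3000 bp where the neighbour lay within 1 kb. It was 2200 bp (interval 1200 to 3400) for the 35 regions with nothing within 500000 bp, of which 34.3% were 1000 bp or less and none reached 10 kb. In pairs the 2 lengths together had a median of 8000 bp at gaps of up to 1 kb and 9302.5 bp at gaps of 4 to 6 kb (intervals 7400 to 8400 and 8600 to 9800). The median was 7800 bp at 1 to 2 kb and 8800 bp at 2 to 4 kb. At 6 to 10 kb it was again 8800 bp (interval 8200 to 9400), so it did not rise steadily with the gap. Taken 1 by 1, regions in pairs had a median of 3800 bp and single regions 4400 bp.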
